A study of Mus musculus with 6 samples.

Results

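MHC class I and class II molecules carry peptides to the cell surface, where T cells read them. The 10 genes of this machinery described here were measured in P15 microglia of the rostral nucleus of the solitary tract (NST), the brainstem relay for taste. They are *H2-K1*, *H2-D1*, *B2m*, *Tap1* and *Tapbp* of class I and *H2-Aa*, *H2-Ab1*, *H2-Eb1*, *Cd74* and *Ciita* of class II. They were taken by gene symbol, not by their values, and all 10 were found among the 26789 genes of the deposited table. Of these genes, 7 lie in the MHC on chromosome 17, between *Tapbp* (start 33915899, GRCm38) and *H2-D1* (end 35267499), while *B2m* is on chromosome 2, *Cd74* on chromosome 18 and *Ciita* on chromosome 16. The 6 libraries of microglia, the resident macrophages of the brain, fell into 2 groups of 3. Controls were offspring of dams that ate a control diet, and E3–E12 diet mice were offspring of dams that ate a low-sodium diet from E3 to E12 of gestation, so the diet was the mother's and ended before birth. By the study's methods, male and female mice were used and each library held the pooled rostral NST of littermates, so 1 library stands for 1 litter and differences between littermates are not seen. The methods describe sorting with magnetic beads against CD11b, whereas the labels describe laser microdissection, so how the cells were obtained is uncertain.

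A class I molecule is a heavy chain, such as the product of *H2-K1* or *H2-D1*, joined to β2-microglobulin, the product of *B2m*. The transporter encoded by *Tap1* and *Tap2* pumps peptides made by the proteasome into the endoplasmic reticulum, and tapasin, the product of *Tapbp*, holds the empty class I molecule at that transporter until a peptide is bound. A class II molecule is a pair of α and β chains (I-A from *H2-Aa* and *H2-Ab1*, the I-E β chain from *H2-Eb1*). It travels with the invariant chain CD74 to the endosome, where peptides from engulfed material are loaded. *Ciita* encodes the coactivator needed for transcription of the class II chains. Resting microglia are known for low class II, which rises when they meet interferon gamma, and in the brain dendritic cells and macrophages of the borders are among the other known class II cells.

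No difference between the diets was detected in any of the 10 genes. By limma on log2(normalized count + 1), 0 of the 10 passed an adjusted p of 0.1 (adjusted p = 0.999 for each, Benjamini-Hochberg over all genes), where 0.0% of the 18007 genes tested did. None of the 10 had an unadjusted p under 0.05 (0 of 10), where 1.82% of all genes did, and in 0 of the 10 did the groups fail to overlap, where 5.9% of all genes were apart. Of the 79 other pathway genes tested 0 were called in this fit. The 0.0% belongs to this fit of the deposited values and is not the study's own result. The study listed many genes as higher and many others as lower in E3–E12 diet mice. The reason for this difference was not tested. The study, which used DESeq2 at the same threshold, listed *H2-Q10* of the class I pathway as higher in E3–E12 diet mice. Single libraries differed widely, by 46.3-fold between the lowest and the highest in *H2-Aa* (both of E3–E12 diet mice) and by 20.5-fold in *Ciita*. The lowest values behind these folds were only 5.97 and 3.99 normalized counts.

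The proximal promoters of classical MHC genes are known for a shared module. Its X box is bound by RFX and, at its second part, by CREB-family factors, and its Y box, an inverted CCAAT box, is bound by NF-Y. CIITA and its class I counterpart NLRC5 dock on these factors rather than on DNA. RefSeq promoter windows (GRCm38.p6, from 250 bases before to 50 after the gene start) were at hand for 7 of the 10 genes, with none used for *H2-Ab1*, *Cd74* and *Ciita*. The stretches of 4 of them are shown. Those of the class I genes *H2-K1* and *B2m* and the class II gene *H2-Aa* carry the same pair of short motifs. That of *H2-Eb1* holds only the second motif. All are written 5′ to 3′ on the gene's own strand, with TGACG and ATTGG in capitals:
H2-K1, chr17:34000352-34000411, minus strand: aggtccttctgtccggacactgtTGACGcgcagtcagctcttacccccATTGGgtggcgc
B2m, chr2:122147586-122147645, plus strand: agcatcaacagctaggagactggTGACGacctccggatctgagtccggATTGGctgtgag
H2-Aa, chr17:34287860-34287919, minus strand: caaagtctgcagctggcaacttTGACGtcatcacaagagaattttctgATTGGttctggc
H2-Eb1, chr17:34305760-34305819, plus strand: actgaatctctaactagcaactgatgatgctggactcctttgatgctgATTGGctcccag

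In *H2-K1* and *B2m* 20 bases lay between the motifs, and in *H2-Aa* 21 bases. *H2-D1* had the pair at the same distance of 20 bases (chr17:35262970-35263029, plus strand, within an exon of a longer GENCODE transcript of the gene), and its 60 bases matched those of *H2-K1* at 49 positions (81.7%). In *H2-Eb1* only ATTGG was found in the stretch. TGACG followed by ATTGG after 18 to 22 bases, searched on both strands, was in 4 of the 7 genes' promoters and in 0.268% of the 32851 promoters of the table. The pair was not found in the promoters of the class I genes *Tap1* and *Tapbp* or in that of *H2-Eb1*. On either strand, TGACG alone was in 20.8% of all promoters and ATTGG alone in 37.4%. GGGGATTCC, the letters of a κB site, was in *H2-K1* and *H2-D1* and in 0.25% of all promoters, and AANNGAAA, letters found within interferon response elements, was in *H2-K1*, *H2-D1*, *B2m* and *H2-Aa* and in 23.9% of all. No motif of these 4 contains another. These motifs were chosen with the promoters of MHC genes known, and a match describes the sequence and not a binding event. Although they share the pair, *B2m*, *H2-K1* and *H2-Aa* stood at different levels per length.

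The deposited values are normalized counts of unknown read depth, and they summed to between 9407141 (E3–E12 diet library 1) and 17204618 (control library 2). Control library 2 also had the most genes listed at 0, 10640 against 3459 to 7135 in the others. Of the 16 microglia markers, 15 were above 0 in every library, and *Tyrobp* was listed at 0 in all 3 E3–E12 diet libraries. Without *Tyrobp*, the mean log2 level of the other 15 was 11.84, 14.00 and 13.48 in control libraries 1, 2 and 3 and 11.68, 13.13 and 13.70 in E3–E12 diet libraries 1, 2 and 3, so it was lowest in library 1 of each diet. Summed over all 16, they were at 122580.3 to 582002 normalized counts in the controls and 114765 to 389779.7 in E3–E12 diet mice. Markers of the choroid plexus, the secretory tissue of the nearby ventricle, summed to 58382 normalized counts in E3–E12 diet library 1, to 14455 and 30342 in control libraries 1 and 3 and to 780, 1452 and 1242 in the remaining libraries (control 2, E3–E12 diet 2 and 3). In bulk samples such as these, fewer cells of a type and less RNA per cell cannot be told apart.

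Per length, the 10 genes spanned a wide range of levels. Normalized counts were divided by kb of annotated exon to compare genes, and the mean of log2 level per kb over the 6 libraries was highest for *B2m*, at 14.34 ± 1.25 (SD, n = 6), and lowest for *Ciita*, at 1.64 ± 1.55. The order was *B2m*, *Cd74*, *H2-K1*, *H2-D1*, *Tapbp*, *H2-Ab1*, *Tap1*, *H2-Aa*, *H2-Eb1* and *Ciita*, and it was the same with the median length of the coding transcripts in place of all exons. *Cd74* stood at 11.05 ± 0.91 on this scale. This was 0.97 ± 0.43 above the class I heavy chain *H2-K1* (10.08 ± 0.78), and *H2-D1* was at 9.82 ± 0.53. The class II chains that CD74 accompanies were far lower, with *H2-Ab1* at 5.70 ± 1.49, *H2-Aa* at 3.97 ± 1.93 and *H2-Eb1* at 2.75 ± 2.51. In normalized counts, not corrected for length, *Cd74* was 10.8 to 70.3 times *H2-Ab1* within a library.

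Some neighbours in this order did not differ beyond their spread. *H2-K1* was above *H2-D1* in 4 of 6 libraries (mean difference 0.26 ± 0.55 on the log2 per kb scale), *H2-Ab1* above *Tap1* in 5 (0.28 ± 0.88), *H2-Aa* above *H2-Eb1* in 4 (1.22 ± 1.81) and *H2-Eb1* above *Ciita* in 3 (1.11 ± 2.45). *Tap1* was above *H2-Aa* in 5 of 6 libraries, by 1.45 ± 1.33. *B2m* over *Cd74*, *Cd74* over *H2-K1*, *H2-D1* over *Tapbp* and *Tapbp* over *H2-Ab1* held in all 6. With the length of the coding transcripts some of these margins changed: *Cd74* over *H2-K1* was then 0.39 ± 0.43 and held in 5 libraries, while *H2-K1* over *H2-D1* (0.87 ± 0.55) and *H2-Aa* over *H2-Eb1* (2.96 ± 1.81) held in all 6. By that length *Tap1* over *H2-Aa* was only 0.46 ± 1.33, in 5 libraries, and *H2-Eb1* over *Ciita* 0.16 ± 2.45, in 3.

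**Figure D1:**
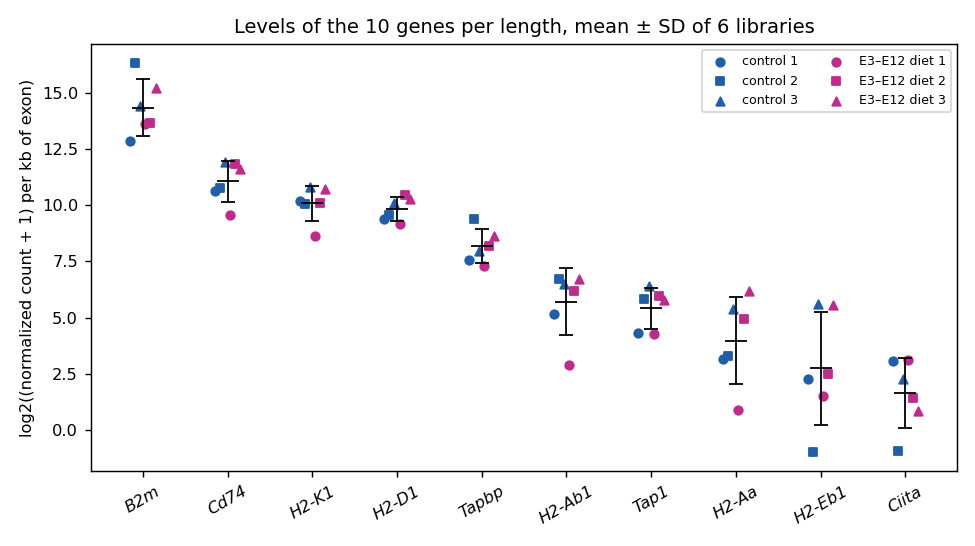
Level of each gene per kb of exon, as log2 of the normalized count + 1 per kb, in the 6 libraries (blue, controls; magenta, E3–E12 diet; circles, squares and triangles are libraries 1, 2 and 3), with the mean ± SD in black. *B2m* lies above the other 9 genes in every library, *Cd74* lies just above *H2-K1*, and the class II chains and *Ciita* spread most.

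Among the class I heavy chains, *H2-K1* (ENSMUSG00000061232) had 3408, 3133 and 5226 normalized counts in control libraries 1, 2 and 3 and 1158, 3259 and 4938 in E3–E12 diet libraries 1, 2 and 3. E3–E12 diet library 1 was the lowest and the groups overlapped. The log2 fold change, E3–E12 diet minus control, was -0.53 (standard error, SE, 0.73, 95% interval -2.26 to 1.21, exact permutation p = 0.5, two-sided), and 0.07 with E3–E12 diet library 1 left out. *H2-D1* (ENSMUSG00000073411) had 1715.5, 1967 and 2818 normalized counts in the controls and 1461, 3597 and 3191 in E3–E12 diet mice, again lowest in E3–E12 diet library 1. Its log2 fold change was 0.27 (SE 0.63, 95% interval -1.22 to 1.77, exact permutation p = 0.7). With 3 libraries against 3 the smallest p this permutation test can give is 0.1. Both genes share sequence with other class I genes: 9.63% of the 50-base windows of *H2-K1* and 12.8% of those of *H2-D1* occur in another annotated gene (*H2-Q7*, *H2-Q10*, *H2-Q1* or each other), so reads there could be split between them.

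*B2m* (ENSMUSG00000060802), whose product is the light chain of every classical class I molecule, had 6399.6, 69602 and 18968 normalized counts in the controls and 10698, 11088 and 32388 in E3–E12 diet mice. Control library 2 was more than the sum of any other 2 libraries, and the lowest value was also a control. The log2 fold change was -0.38 (SE 1.01, 95% interval -2.80 to 2.04, exact permutation p = 0.7), and 0.51 without control library 2. Within a library, in normalized counts not corrected for length, *B2m* was 22.2 times *H2-K1* in control library 2 and between 1.88 and 9.24 times *H2-K1* in the others. No 50-base window of *B2m* is shared with another gene.

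The peptide-loading genes were lower in level. *Tap1* (ENSMUSG00000037321) had 107, 307 and 461 normalized counts in the controls and 104, 341 and 297 in E3–E12 diet mice, with library 1 lowest in both groups (log2 fold change -0.18, SE 0.82, exact permutation p = 0.7). *Tapbp* (ENSMUSG00000024308) stood at 682, 2430.5 and 915 in the controls and at 577, 1066 and 1453 in E3–E12 diet mice, with control library 2 highest (log2 fold change -0.25, SE 0.74, exact permutation p = 0.7). Both signs turned with 1 library left out, to 0.36 for *Tap1* without E3–E12 diet library 1 and 0.27 without control library 3, and to 0.29 for *Tapbp* without control library 2 and 0.11 without E3–E12 diet library 1. Of the windows of *Tapbp*, 23.2% also occur in another annotated gene, mostly the overlapping model *Gm19412*, and of *Tap1* 3.33%, most of them in its neighbour *Psmb9* (2.88%). The mean log2 level of the 5 class I genes was 10.26, 11.63 and 11.34 in the controls and 9.99, 11.08 and 11.52 in E3–E12 diet mice, a difference of -0.21 against a pooled SD of 0.76 between libraries of a diet. With each library left out in turn this difference ranged from -0.62 (without control library 1) to 0.22 (without E3–E12 diet library 1), and it was 0.064 without control library 2.

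**Figure D2:**
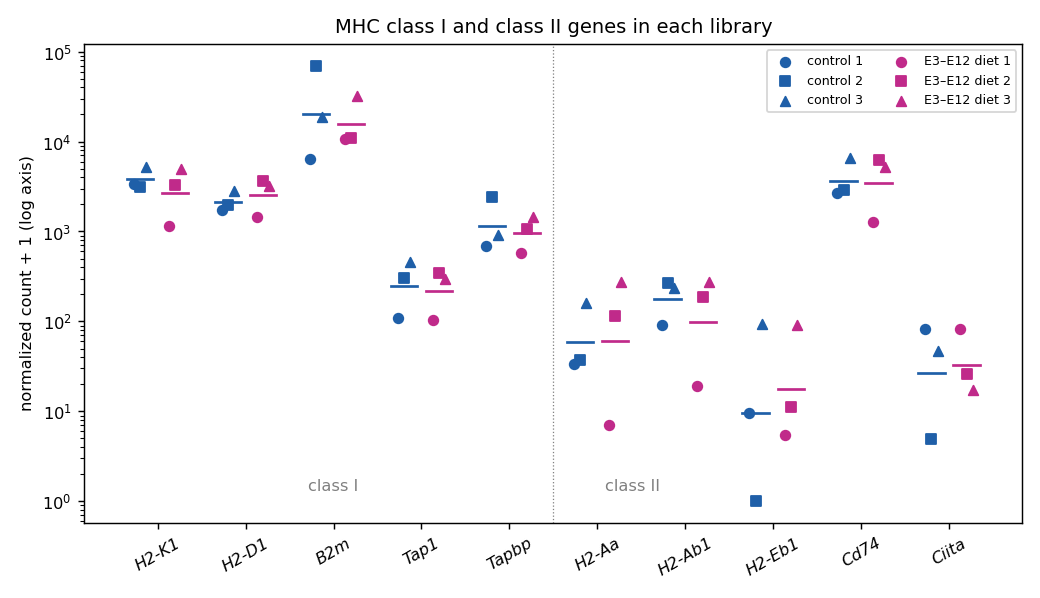
Normalized count + 1 on a log axis for each gene in each library (blue, controls; magenta, E3–E12 diet; circles, squares and triangles are libraries 1, 2 and 3; horizontal bars, mean on the log2 scale). The diets overlap in every gene, control library 2 stands highest in *B2m* and at 0 normalized counts in *H2-Eb1*, and E3–E12 diet library 1 is lowest in 7 of the 10 genes.

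Of the class II chains, *H2-Ab1* (ENSMUSG00000073421) had 91.4, 269 and 232 normalized counts in the controls and 18.2, 185 and 274 in E3–E12 diet mice. *H2-Aa* (ENSMUSG00000036594) stood at 32.9, 36.05 and 159 in the controls and at 5.97, 114 and 277 in E3–E12 diet mice. Both were lowest in E3–E12 diet library 1 and highest in E3–E12 diet library 3, so the extremes of both genes were within 1 diet. The log2 fold change was -0.85 for *H2-Ab1* (SE 1.13, 95% interval -3.55 to 1.84, exact permutation p = 0.7) and 0.05 for *H2-Aa* (SE 1.46, 95% interval -3.44 to 3.54, exact permutation p = 1). Without E3–E12 diet library 1 these values were 0.33 and 1.61, and that of *H2-Aa* was -1.05 without E3–E12 diet library 3, -0.41 without E3–E12 diet library 2, -0.35 without control library 1 and -0.28 without control library 2. The α to β ratio of I-A in normalized counts ranged between 0.134 in control library 2 and 1.01 in E3–E12 diet library 3.

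*H2-Eb1* (ENSMUSG00000060586), the I-E β chain, had 8.52, 0 and 93.3 normalized counts in the controls and 4.51, 10.1 and 89.5 in E3–E12 diet mice. It was thus near 90 in library 3 of each diet and at about 10 or less in the remaining 4 libraries. Its log2 fold change of 0.87 had an SE of 1.82 (exact permutation p = 0.8) and was -0.76 without control library 2, where it was listed at 0, and -0.30 without E3–E12 diet library 3. C57BL/6 mice, the background that the study names for its controls, are known to lack a working I-E α chain, and the pseudogene *H2-Ea-ps* was listed at 0 in 5 of the 6 libraries, with 9.09 normalized counts in E3–E12 diet library 1. The dendritic cell marker *Cd209a*, singled out after its values were seen, had 0, 0 and 29.2 normalized counts in the controls and 2.26, 2.24 and 59.5 in E3–E12 diet mice, so it too was highest in library 3 of each diet. The dendritic cell list as a whole (10 markers, 8 above 0 in every library) summed to 960, 834 and 1147 in the controls and to 1622, 1414 and 1243 in E3–E12 diet mice, highest in E3–E12 diet library 1. By the mean log2 level of the 10 markers, which gives each marker the same weight, the list was highest in library 3 of each diet, at 5.16, 4.75 and 6.08 in the controls and 5.77, 5.54 and 6.30 in E3–E12 diet mice. That mean includes *Cd209a*. Of the other markers, *Flt3*, *Zbtb46*, *Xcr1*, *Clec9a* and *Clec10a* were higher in E3–E12 diet library 1 than in library 3. *Itgae*, *Batf3*, *Ccr7* and *Itgax* were lower there, so the markers did not share 1 pattern. The B cell marker *Ms4a1* was at 2.32 or less in every library, while the B cell list of 8 summed to 3019 to 8933 in the controls and to 2823 to 8655 in E3–E12 diet mice, with *Ighm* its largest member. Border macrophage markers, all 10 above 0 in every library, summed to 9277 to 66057 normalized counts in the controls, with the highest in control library 2, and to 12100.1 to 20080.1 in E3–E12 diet mice. Of that highest sum 43256 came from *Stab1*. By mean log2 level the list was at 10.63 in control library 2 and at 8.59 to 9.47 in the other libraries. The part of other antigen-presenting cells in these levels was not tested.

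*Cd74* (ENSMUSG00000024610) had 2662, 2902.5 and 6486 normalized counts in the controls and 1281, 6161 and 5215 in E3–E12 diet mice. Control library 3 and E3–E12 diet libraries 2 and 3 were high and the groups overlapped. The log2 fold change was -0.09 (SE 0.82, 95% interval -2.06 to 1.87, exact permutation p = 0.9), 0.62 without E3–E12 diet library 1 and 0.31 without control library 3. No window of *Cd74*, *H2-Ab1* or *H2-Eb1* is shared with another gene.

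*Ciita* (ENSMUSG00000022504) had 80.4, 3.99 and 45.7 normalized counts in the controls and 81.7, 24.7 and 16.1 in E3–E12 diet mice. It was highest in library 1 of each diet, where *H2-Aa* and *H2-Ab1* were lowest within that diet, and lowest in control library 2. The log2 fold change of *Ciita* was 0.31 (SE 1.21, 95% interval -2.57 to 3.20, exact permutation p = 0.8), -0.90 without control library 2 and -0.35 without E3–E12 diet library 1. *H2-Ab1* was 0.223 times *Ciita* in E3–E12 diet library 1 and 67.4 times *Ciita* in control library 2, in normalized counts. The 67.4 rests on a *Ciita* value of 3.99, near the floor. The mean log2 level of the 5 class II genes was 6.52, 5.42 and 7.99 in the controls and 5.24, 7.03 and 7.83 in E3–E12 diet mice, a difference of 0.058 against a pooled SD of 1.31. With each library left out in turn this difference ranged from -0.55 (without control library 2) to 0.79 (without E3–E12 diet library 1), and it was 0.73 without control library 3, -0.51 without E3–E12 diet library 3, -0.10 without E3–E12 diet library 2 and -0.0052 without control library 1.

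Across the 6 libraries the 10 genes did not move as 1 group. As a description with n = 6 libraries, which also differ in total and in microglia marker level, Pearson's r of log2 levels was highest for *H2-Aa* with *Cd74* (0.951), *H2-D1* with *Cd74* (0.937), *H2-K1* with *H2-Aa* (0.918) and *B2m* with *Tapbp* (0.911). *H2-K1* and *H2-D1* were at 0.301 and 0.2 with *B2m*, lower than with the class II gene *Cd74* (0.878 and 0.937). Control library 2 bears on this. There the log2 level of *B2m* deviated by 1.96 from its mean over the 6 libraries, and those of *H2-K1* and *H2-D1* by only -0.02 and -0.24. *Ciita* had a negative r with every other gene of the group except *H2-Eb1* (0.345), and the most negative were *Tapbp* (-0.99) and *B2m* (-0.906). Its value in control library 2, 3.99 normalized counts, was near the floor. The 15 microglia markers were lowest in library 1 of each diet and highest in control library 2, the reverse of *Ciita* at both ends, and the part of microglia content in these orders was not tested.

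**Figure D3:**
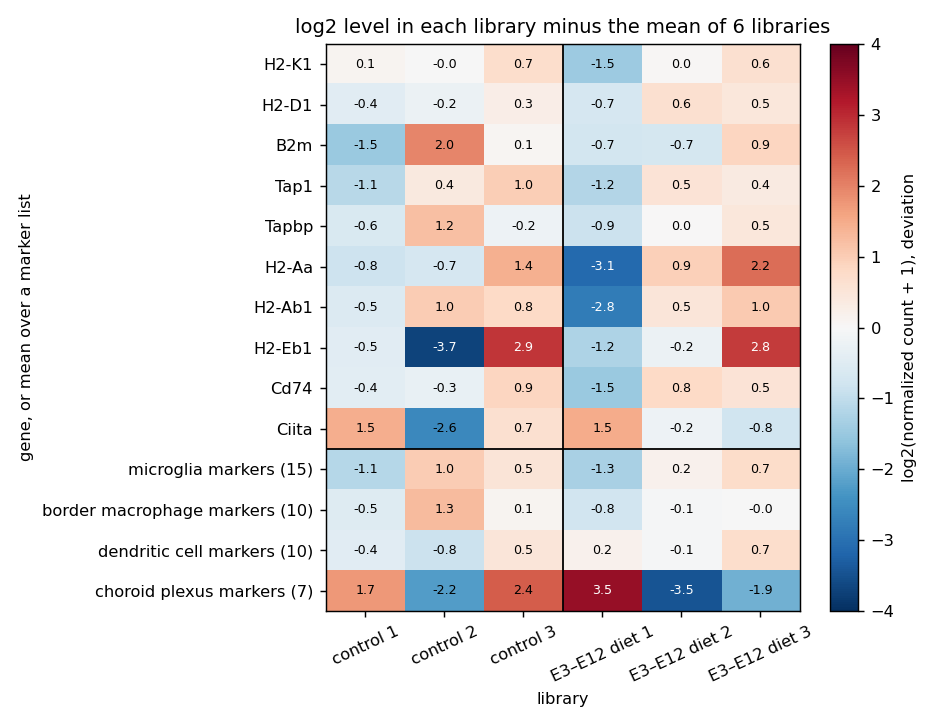
Deviation of the log2 level in each library from the mean of the 6 libraries, for the 10 genes (above the line) and for the mean over 4 marker lists (below it), in log2 units. Red is above and blue below the mean, and the largest deviations among the genes are *H2-Eb1* in control library 2 (-3.7) and *H2-Aa* in E3–E12 diet library 1 (-3.1), while choroid plexus markers range from -3.5 to 3.5.

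In mean log2 level the class I genes spread less between libraries than the class II genes. The SD of this level was 0.72 in controls and 0.79 in E3–E12 diet mice for class I. For class II it was 1.29 and 1.32. The mean log2 level of the 5 class I genes minus that of the 15 microglia markers was -1.58, -2.37 and -2.14 in the controls and -1.69, -2.05 and -2.18 in E3–E12 diet mice. For the 5 class II genes this difference was -5.32, -8.58 and -5.49 in the controls and -6.43, -6.10 and -5.87 in E3–E12 diet mice, with control library 2 the lowest. Relative to the markers, both classes thus spread to a similar degree in E3–E12 diet mice. The wider spread of class II in the controls came from control library 2. In that library *H2-Eb1* was listed at 0 and *Ciita* at 3.99 normalized counts, both near the floor.

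The genes whose pattern was most like a mean over MHC genes were found by Pearson's r over the 6 libraries, among 17997 genes. Such a mean is not the pattern of each gene in it. *H2-K1*, *H2-D1* and *B2m* had an r of 0.78, 0.67 and 0.81 with their own mean. With the mean of the 3 class II chains *H2-Aa*, *H2-Ab1* and *H2-Eb1* had 0.97, 0.75 and 0.84, and *H2-Ab1* had 0.93 with the class I mean. For the mean of the 3 class II chains these were *Oas1a* (0.996), an interferon-induced sensor of double-stranded RNA, *Naxe* (0.991), *Zfp966* (0.990), *Pink1* (0.989) and *Lrrfip1* (0.985), and 191 genes had an r over 0.9. *Oas1a* had 24.03, 17.8 and 76.2 normalized counts in the controls and 10.2, 47.2 and 99.4 in E3–E12 diet mice. For the mean of *H2-K1*, *H2-D1* and *B2m* they were *Itgb2* (0.998), the β2 integrin chain that pairs with CD11b, *Rab27a* (0.998), *Ubl3* (0.994), *Tesk1* (0.994) and *Gm16059* (0.994), and 392 genes had an r over 0.9. *Itgb2* had 983, 3742 and 3272 normalized counts in the controls and 676, 1953 and 4034 in E3–E12 diet mice. With 6 libraries many genes reach such values, and they are a description only.

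The other genes of the pathway were read from 5 lists, on the same fit. Of the 23 other class I pathway genes 21 were tested, with 0 called and a median log2 fold change of 0.19. Of the 18 other class II pathway genes all were tested, with 0 called and a median of -0.21. The costimulation and adhesion list (6 of 7 tested, median -0.28), the interferon gamma axis (11 of 12 tested, median 0.036) and the interferon response (23 of 24 tested, median 0.14) also had 0 called, where the median over all genes was 0.087 and that of the 10 MHC genes -0.14. Over all 79 pathway genes tested, 40 had a higher and 39 a lower mean log2 level in E3–E12 diet mice, 0 had an unadjusted p under 0.05, and in 2 (2.53%) the groups did not overlap, against 5.9% of all genes.

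**Figure D4:**
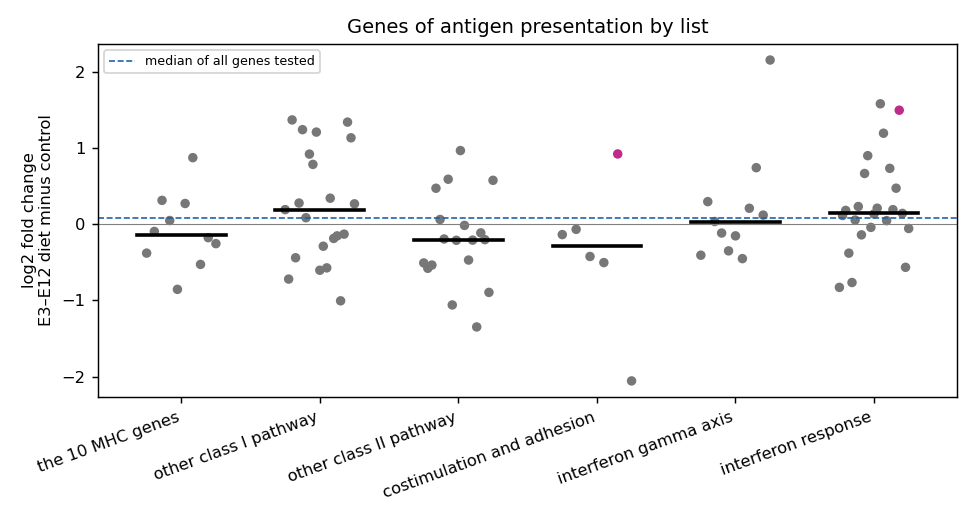
Log2 fold change, E3–E12 diet minus control, of each tested gene in the 6 lists (points; magenta, the 2 genes whose groups did not overlap; black bars, list medians; dashed line, median of all genes tested, 0.087). Every list straddles 0, and the list medians lie between -0.28 and 0.19.

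The 2 genes without overlap were *Icam1* and *Rsad2*. *Icam1*, an adhesion molecule that T cells bind during antigen recognition, had 2166, 1094 and 1879 normalized counts in the controls and 2227, 3478 and 3922 in E3–E12 diet mice (log2 fold change 0.92, SE 0.60, exact permutation p = 0.1). The lowest E3–E12 diet library was only just above the highest control. *Rsad2*, which encodes the antiviral enzyme viperin, stood at 62.6, 14.0 and 55.7 in the controls and at 95.7, 87.3 and 141 in E3–E12 diet mice (log2 fold change 1.498, SE 0.75, exact permutation p = 0.1), and 0.83 without control library 2. Limma gave both an adjusted p of 0.999.

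Of the class I pathway, *Tap2*, the partner of *Tap1* in the peptide transporter, had 100.1, 108 and 268 normalized counts in the controls and 179, 410.4 and 424 in E3–E12 diet mice. Its log2 fold change was 1.14 (SE 0.70, exact permutation p = 0.2) beside -0.18 for *Tap1*, and the groups overlapped. *H2-Q7*, a nonclassical heavy chain known as Qa-2, stood at 6479, 3307 and 3901 in the controls and at 6146, 7392 and 9435 in E3–E12 diet mice (log2 fold change 0.79, SE 0.58). In *H2-Q7* 26.4% of windows, and in the nonclassical *H2-T22* 53.5%, are shared with other annotated genes, so both are uncertain. *H2-T22* (log2 fold change 1.21), the lipid-presenting *Cd1d1* (1.37) and the proteasome activator subunit *Psme2* (1.34) were each lowest in control library 2, and their values were 0.31, 0.41 and 0.42 without it. *Nlrc5*, the class I coactivator, had 81.0, 83.6 and 199 normalized counts in the controls and 43.4, 202 and 312 in E3–E12 diet mice (log2 fold change 0.34, SE 0.90). *H2-Q10* was listed by the study as higher in E3–E12 diet mice. It had 4573, 337 and 5748 normalized counts in the controls and 1580.5, 9333 and 7960 in E3–E12 diet mice. Its log2 fold change here was 1.24 (SE 1.31, exact permutation p = 0.5), in the same direction as the study's. It was -0.066 without control library 2, where the gene was lowest. Of its windows, 19.1% are shared with other annotated genes.

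Of the class II pathway, *Ifi30*, a thiol reductase that unfolds antigens in the endosome, had 301, 258 and 581 normalized counts in the controls and 456, 1118 and 666 in E3–E12 diet mice (log2 fold change 0.97, SE 0.65, exact permutation p = 0.2). *Nfyb*, a subunit of the factor that binds the Y box, stood at 124, 2002 and 181 in the controls and at 83.3, 142 and 228 in E3–E12 diet mice. Control library 2 was far above the rest, and the log2 fold change of -1.35 (SE 1.15) was -0.10 without that library. The peptide exchange chain *H2-DMa* stood at 147, 526 and 714 in the controls and at 170, 659 and 1323 in E3–E12 diet mice (log2 fold change 0.47, SE 1.004), and the invariant chain protease *Ctss* stood at 1421, 4364 and 12514 in the controls and at 1150, 3077 and 7201 in E3–E12 diet mice (log2 fold change -0.54, SE 1.05). As for *H2-Aa* and *H2-Ab1*, library 1 was the lowest of each diet in both genes.

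Of the interferon genes, *Irf7*, an interferon-induced transcription factor, had the smallest unadjusted p of the pathway lists (0.0715, limma, adjusted p = 0.999). It had 21.2, 35.9 and 72.1 normalized counts in the controls and 62.5, 131 and 191 in E3–E12 diet mice, a log2 fold change of 1.58 (SE 0.74, exact permutation p = 0.2). Control library 3 was above E3–E12 diet library 1, so the groups overlapped. *Irf1*, an interferon-induced transcription factor known to act on the *Ciita* promoter, stood at 445, 1253 and 324 in the controls and at 407, 931 and 513 in E3–E12 diet mice. It was highest in control library 2, and the groups overlapped.

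**Figure D5:**
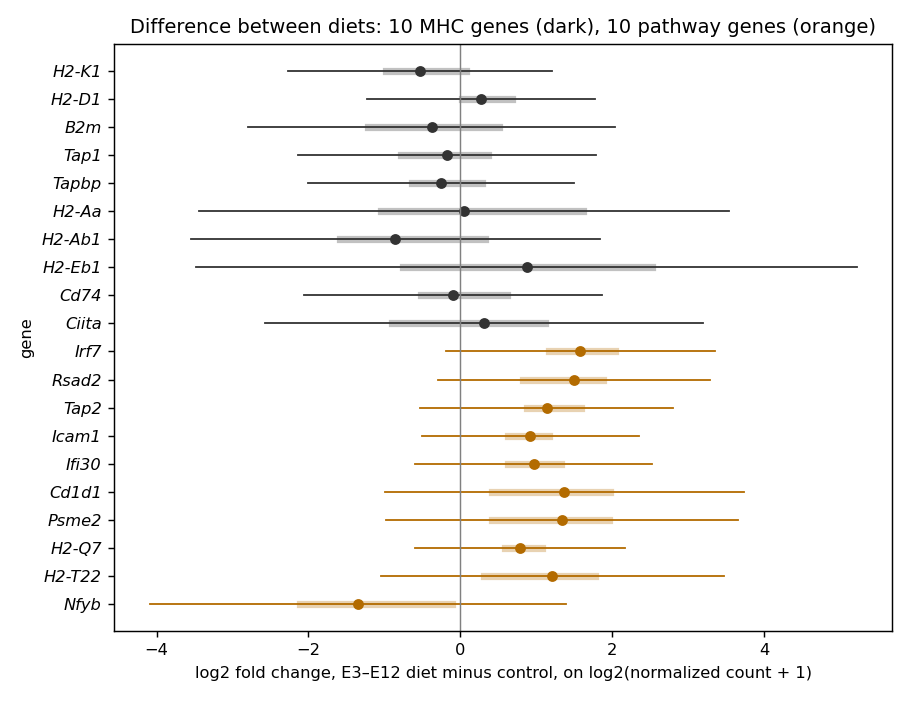
Log2 fold change on log2(normalized count + 1), E3–E12 diet minus control, of the 10 MHC genes (dark) and of the 10 pathway genes with the smallest p (orange), with the 95% interval from limma (thin lines) and the range with each library left out in turn (thick pale bars). Every interval includes 0, and 9 of the 10 pathway genes, chosen for their small p, lie to the right of 0.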

How the data were processed

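Microglial RNA of 6 libraries was sequenced by the authors, 3 libraries per diet, each from pooled littermates of 1 litter. The authors deposited normalized counts (a signal scaled between libraries, not raw counts) for 26789 genes, 26507 of which matched a symbol. The submitters' processing notes name FastQC, STAR, featureCounts, DESeq2 and the build GRCm38, and how the values were scaled is not given in the sources used here. The deposited table is named for surrogate variables, and whether its values were adjusted for them is likewise not given. Such an adjustment could change every level, spread, correlation and p-value reported. Whole reads could not be recovered (27.8% to 48.4% of low values within 0.02 of a whole multiple of the library's smallest step), so depth and counting error are unknown and no count test was run.

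The 18007 genes averaging 10 or more normalized counts were tested with limma 3.58.1 (R 4.3.3) on log2(normalized count + 1), two-sided, with Benjamini-Hochberg adjustment over all genes and the study's threshold of 0.1. In low genes the log2 fold changes of the limma fit depend on the number added before the log2 (pseudocount), in either direction. With 0.5, 1 and 10 added that of *H2-Eb1* was 1.17, 0.87 and 0.20 and that of *H2-Aa* was 0.026, 0.049 and 0.26. Single genes were also tested by exact permutation over libraries. Groups came from the sample titles. The fit was tested on simulated data with less spread than most genes have here, so that test does not show what could be detected in these libraries. Exon lengths, positions and shared 50-base windows came from GENCODE M21 on GRCm38 and promoters from RefSeq GRCm38.p6. The genes, pathway lists and marker lists were chosen with earlier results of these data known. Of the pathway lists, the 10 genes with the smallest p were named by rule. The other pathway genes named (*Nlrc5*, *H2-DMa*, *Ctss* and *Irf1*), like *Cd209a*, the other dendritic cell markers and *H2-Ea-ps*, were named for their roles or after their values were seen. *H2-Q10* was named because the study listed it. Alternatives were another pseudocount, filter, scaling, prior variance or library weights, a replicate block, and leaving out each library.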

Additional observations from a re-analysis of the deposited data

How the results depend on the processing

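The count of called genes was 0 in all alternatives but 2: it was 1 (*Prdm4*) when genes had to average 50 or more normalized counts, and 5 with library weights (*Slc4a1ap*, *Tyrobp*, *Prdm4*, *Mynn* and *Gm12666*), none of them a gene of antigen presentation. Genes with an unadjusted p under 0.05 numbered 327, and 207 under the higher filter, 491 after quantile normalization, 1205 with library weights, 101 after centring on the 15 microglia markers (added after seeing the data) and 276 to 551 with each library left out in turn (551 without control library 1). These scalings moved the median log2 fold change of all genes from 0.087 to -0.0034 (quantile), 0.20 (same total) and 0.36 (microglia markers). No MHC gene was called under any alternative run, and the sign of 9 of the 10 turned under at least 1; *H2-D1* was the exception. After quantile normalization the values were -0.51 for *H2-Aa*, -0.018 for *H2-Eb1*, 0.052 for *Cd74* and -0.44 for *Ciita*. With library weights they were 0.26 for *Tapbp*, -0.29 for *H2-Aa*, -1.38 for *H2-Eb1* and -0.81 for *Ciita*. After centring on microglia markers they were 0.095 for *Tap1*, 0.017 for *Tapbp* and 0.18 for *Cd74*, and with equal totals 0.026 for *Cd74*. The difference in mean log2 level was 0.058 after centring on microglia markers for the class I genes, and -0.43 after quantile normalization and -0.054 with a pseudocount of 10 for the class II genes. With each library left out in turn they ranged from -0.98 to 0.070 for *H2-K1*, 0.027 to 0.68 for *H2-D1*, -1.21 to 0.51 for *B2m*, -0.78 to 0.36 for *Tap1*, -0.63 to 0.29 for *Tapbp*, -1.05 to 1.61 for *H2-Aa*, -1.59 to 0.33 for *H2-Ab1*, -0.76 to 2.52 for *H2-Eb1*, -0.51 to 0.62 for *Cd74* and -0.90 to 1.12 for *Ciita*. *H2-Eb1* and *Ciita* could not be tested under the higher filter. The cause was not tested. Same-numbered libraries deviated together with correlations of 0.260, 0.0348 and 0.142, and 1 of them was under 0.1, so the numbers were not taken to pair the libraries. As a hint from the data and not the design, every E3–E12 diet library correlated best with the control of its own number, whereas control library 2 correlated best with E3–E12 diet library 3 (0.0868). With the replicate block 0 genes were called (smallest adjusted p = 0.980, limma), 468 had an unadjusted p under 0.05, and of the pathway genes *Irf7* had one (0.0367). Depth is unknown, and the median standard error of 0.85 limits what 3 libraries per diet can show.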

Other observations

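The ratio of *H2-K1* to *H2-D1*, the 2 classical class I heavy chains, was noticed after the values were seen. In normalized counts, not corrected for length, it was 1.99, 1.59 and 1.85 in control libraries 1, 2 and 3 and 0.793, 0.906 and 1.55 in E3–E12 diet libraries 1, 2 and 3. Every control library was above every E3–E12 diet library, closest between control library 2 and E3–E12 diet library 3, although neither gene alone was apart between the diets. This was 1 of 6 ratios computed, and 5.9% of all genes tested were also apart between the diets. That share is of levels of single genes, and no such share was computed for ratios. Of the 50-base windows of *H2-K1* 4.08%, and of those of *H2-D1* 5.44%, occur in the other gene, and the part of shared reads in the ratio was not tested.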
